A study of Rattus norvegicus with 32 samples.

Results

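The genes described here are those of the potassium channels of the rat nucleus accumbens shell, the medial part of the ventral striatum. They were taken as every gene symbol made of Kcn, letters and a closing number, which found 93 of the 34322 symbols in the count table. The rule takes pore-forming subunits and auxiliary subunits alike. Of the 93, 82 had enough counts to be tested among 17059 genes. The 11 left out were Kcna7, Kcna10, Kcne1, Kcnj1, Kcnj13, Kcnk15, Kcnk16, Kcnk18, Kcnmb3, Kcnu1 and Kcnv2. Kcna10 had 0 counts in all 32 libraries, and of the other 10 only Kcnk16 passed 1 CPM (a count per 1000000 counts of its library), at 1.84 in a single library.

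The 32 libraries of polyadenylated RNA fell into 4 groups of 8, all of rats with the genotype label WT. All rats had been fear conditioned with shocks. The shock was paired with a neutral cue (treatment labels veh_nocue and cbd_nocue) or with a lemon odour as an anxiety cue (veh_cue and cbd_cue). Vehicle or cannabidiol (CBD, a non-intoxicating compound of cannabis) preceded later tests of anxiety with the cue, and the tissue was taken after a final shock. Strain, sex, age and batch are not given in the sources used here. The labels do not say that each library is a separate rat, so p-values measure only the spread between libraries, part of which may be technical.

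Potassium channels let potassium leave the cell and so set the resting potential, end the action potential and space out spikes. Voltage-gated Kv channels open on depolarization, inward rectifiers pass current best near rest, two-pore channels carry leak current, and calcium- or sodium-activated channels follow the ions that enter during firing. Auxiliary subunits such as Kvbeta and KChIP proteins change the gating and surface level of the Kv channels they bind. Medium spiny neurons, the GABAergic projection neurons of the striatum, are known for a hyperpolarized rest held by strong inward rectifiers and for slowly inactivating A-type current that delays their first spike. Kv3 channels are known for the narrow spikes of fast-firing neurons.

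Promoters of 4 members are shown because they stood at the ends of the tissue contrast described next: Kcnj4 and Kcnq5 with the lowest, and Kcns3 and Kcnj16 with the highest, ratio between libraries rich and poor in markers of neighbouring tissue, among members whose libraries did not overlap and that had an entry. They were chosen after their values were seen. Each runs from 250 bases before to 50 bases after the RefSeq gene start in the build GRCr8, which is not a build named for the counts. The GC box (GGGCGG, either strand) is in capitals.
Kcnj4, chr7:112954498-112954797, minus strand: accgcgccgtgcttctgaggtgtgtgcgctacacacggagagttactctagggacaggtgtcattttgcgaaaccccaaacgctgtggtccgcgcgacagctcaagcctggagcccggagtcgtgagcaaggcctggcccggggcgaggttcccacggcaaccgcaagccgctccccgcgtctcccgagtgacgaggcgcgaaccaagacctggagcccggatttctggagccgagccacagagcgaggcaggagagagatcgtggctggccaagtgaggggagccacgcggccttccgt
Kcnq5, chr9:31891232-31891531, minus strand: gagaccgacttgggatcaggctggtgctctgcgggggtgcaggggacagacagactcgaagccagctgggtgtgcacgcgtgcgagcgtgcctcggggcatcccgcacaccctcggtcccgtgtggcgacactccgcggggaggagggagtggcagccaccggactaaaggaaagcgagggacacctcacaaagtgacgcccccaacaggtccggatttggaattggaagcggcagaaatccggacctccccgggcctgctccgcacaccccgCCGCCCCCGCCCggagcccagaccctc
Kcns3, chr6:39584056-39584355, minus strand: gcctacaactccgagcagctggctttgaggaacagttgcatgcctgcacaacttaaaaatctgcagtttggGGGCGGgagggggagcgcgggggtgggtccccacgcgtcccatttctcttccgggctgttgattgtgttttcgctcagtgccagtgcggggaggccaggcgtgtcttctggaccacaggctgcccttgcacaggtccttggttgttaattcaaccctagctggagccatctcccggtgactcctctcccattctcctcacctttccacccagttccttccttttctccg
Kcnj16, chr10:96517074-96517373, plus strand: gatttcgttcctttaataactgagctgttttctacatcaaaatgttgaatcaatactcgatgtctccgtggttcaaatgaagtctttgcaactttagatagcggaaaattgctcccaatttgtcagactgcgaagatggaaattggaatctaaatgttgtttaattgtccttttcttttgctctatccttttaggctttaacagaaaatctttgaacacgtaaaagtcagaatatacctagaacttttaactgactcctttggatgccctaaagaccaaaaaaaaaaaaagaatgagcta
The GC content was 65.7, 68.3 and 58.3% for Kcnj4, Kcnq5 and Kcns3, and 34.0% for Kcnj16. Adjacent GC boxes were found in Kcnq5 (2 matches), 1 was found in Kcns3 and none in the other two. Over the 63 members with an entry the GC box was in 31 (49.2%), against 33.1% of all 33469 promoters of this length, and the median GC content was 61.0% against 51.7%. It was in 4 of 10 members that were low in the libraries with neighbouring tissue and in 4 of 8 that were high. Among tested members whose libraries overlapped it was in 22 of 37 (59.5%). The full cyclic AMP response element (TGACGTCA, its own reverse complement) was in 0 of the 63 and in 1.83% of all promoters, and TATAAA (either strand) in 2 of the 63 and in 14.2%. No base of the windows shown matched these last motifs.

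Total counts ran from 11.65 to 24.0 M per library, and the members took 0.475 to 0.614% of them. Markers of tissue around the shell differed between libraries. Slc17a6, whose product loads glutamate into vesicles of subcortical neurons, was at 20 CPM or more in 6 libraries. Of these, 3 had vehicle and the neutral cue (numbers 4, 7 and 8), 1 had vehicle and the anxiety cue (number 5) and 2 had CBD and the anxiety cue (numbers 2 and 7). The least of the 6 was just above that limit, at 20.004 CPM, and the highest of the other 25 was at 10.4. The striatal receptor gene Drd1 was at 57.3 to 183 CPM in the 6 and at 258 to 460 in the 25. The summed CPM of the 20 medium spiny neuron markers was 2949 to 5966 (median 4199) against 9029 to 15632 (median 11986), and that of 10 subcortical markers was 269 to 428 against 146 to 218. The 10 oligodendrocyte markers overlapped, at 9867 to 12536 against 5142 to 9901. One further library, CBD neutral-cue library 6, had 877 CPM of the cortical transporter gene Slc17a7, where the highest of all other libraries had 62.3, and was held apart. Its Slc17a6 was at 16.8 CPM, between the 25 and the 6. None of the markers in these lists was at 0 in all libraries. Markers of fat (Plin1 of 5 CPM or more, 10 libraries) and of liver (Alb of 20 CPM or more, 10 libraries) also differed. These sets of libraries come from the data and are not the study's groups, so the values that set them side by side carry no test. In tissue RNA, fewer cells of a type and less RNA per cell cannot be told apart.

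In 15 of the 82 tested members (18.3%) all 6 libraries lay below all 25, against 3.25% of all genes tested. In 11 (13.4%) all 6 lay above, against 5.81% of all genes. The median over members of the ratio of the 6 to the 25 was 0.957, near the 1.02 of all genes, so the members spread to both sides. The ratio was under 0.5 in 9 members and over 2 in 13, where all genes had 2.73 and 3.62%.

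Of the strong inward rectifiers of the Kir2 group, Kcnj4 and Kcnj2 were among the members lowest in the 6 libraries, and Kcnj12 and Kcnj14 were not. Kcnj4 (a Kir2 subunit) was at 30.3, 77.2 and 48.8 CPM in the 3 of vehicle with the neutral cue, at 53.8 in the 1 of vehicle with the anxiety cue and at 82.05 and 86.08 in the 2 of CBD with the anxiety cue. The other 25 libraries had 143 to 233 CPM (median 170), so the ranges were far apart and the ratio of medians was 0.386. Kcnj2, another Kir2 subunit, had 15.8 to 34.6 CPM (median 27.1) against 41.1 to 80.2 (median 64.0). Kcnj12, also a Kir2 gene, differed little, at 18.6 to 23.5 CPM (median 19.4) against 18.9 to 26.4 (median 22.2), and its ranges overlapped. Kcnj14, a further Kir2 gene, was at 21.8 to 23.3 CPM in the 6, within the 17.9 to 34.5 of the 25.

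Among Kvbeta and KChIP auxiliary subunits, Kcnab1 and Kcnip2 showed the same separation and the others did not. Kcnab1, a Kvbeta subunit that speeds inactivation of Kv1 channels, was at 86.7, 174 and 113 CPM under vehicle with the neutral cue, at 109 under vehicle with the anxiety cue, and at 151 and 180 under CBD with it. The 25 had 213 to 393 CPM (median 307). Kcnip2, a KChIP partner of Kv4 channels, had 79.8 to 191 CPM (median 137) against 203 to 388 (median 316). Its usual pore partner Kcnd2 followed much less, at 81.2 to 104 CPM (median 93.5) against 88.0 to 134 (median 114), with overlap. Kcnab2, another Kvbeta gene, was level, with medians of 373 and 360 CPM. Kcnip3 had 47.7 to 60.7 CPM in the 6, within the 46.0 to 79.7 of the 25. Kcnip1 was higher in the 6 with overlap, at 21.8 to 37.8 CPM against 10.0 to 23.7. So was Kcnab3, at 22.1 to 39.1 against 4.90 to 47.3. Kcnip4 lay above without overlap, as given below.

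Among voltage-gated pores, Kcna4, the A-type member of the Kv1 family, had 20.9 to 36.1 CPM (median 31.5) in the 6 and 46.8 to 79.4 (median 61.7) in the 25. Kcna5 of the same family had medians of 24.6 and 45.4 CPM. Kcnq5, a subunit of the M-current that restrains repeated firing, had 69.5 to 132 CPM (median 93.5) against 170 to 294 (median 226). Its relative Kcnq3 was level, with medians of 62.1 and 63.1 CPM.

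Modifier subunits form no channel alone and join other Kv subunits. Of the 9 tested, 6 had a ratio under 1 and the median ratio was 0.529. Kcnv1 (median 10.7 CPM in the 6 and 24.9 in the 25), Kcns2 (24.0 and 45.9) and Kcnf1 (60.3 and 114) did not overlap between the sets. Kcns3 of the same class went the other way, with the highest ratio of all members, 4.48: it had 10.4 to 14.6 CPM in the 6 and 0.443 to 6.35 in the 25. Kcns1 had the lowest ratio of all members, 0.269, but only 0.115 to 0.364 CPM in the 6 and 0.0962 to 1.84 in the 25, so its ranges overlapped. Other members with all 6 libraries low were Kcnh1 and Kcnh3 of the ether-a-go-go family, the leak channel Kcnk2 and the Kv4 gene Kcnd1, with ratios of 0.543, 0.540, 0.569 and 0.646.

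Every Kv3 gene was higher by its median in the 6 libraries, with a median ratio of 2.78 over the 4 genes. Kcnc2 was at 145, 104 and 145 CPM under vehicle with the neutral cue, at 132 under vehicle with the anxiety cue, and at 110 and 97.2 under CBD with it. The 25 had 19.5 to 67.3 CPM (median 34.9), all lower than any of the 6. Kcnc4 had 71.2 to 131 CPM (median 86.6) against 15.1 to 39.5 (median 25.0). Kcnc1 reached 143 to 251 CPM against 66.4 to 148, with overlap.

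The Kv1 family divided. While Kcna4 and Kcna5 were low in the 6 libraries, Kcna2 and Kcna6 were high: Kcna2, a channel of axons, had 210 to 372 CPM (median 294) against 114 to 202 (median 152), and Kcna6 had 214 to 330 (median 277) against 103 to 191 (median 144). Kcna1, which often shares channels with Kcna2, had 155 to 187 CPM (median 172) against 182 to 291 (median 221), a ratio of 0.775 with overlap. The oligodendrocyte markers stood higher by their median in the same 6 libraries, and their part in the levels of these axonal channels was not tested.

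Among inward rectifiers high in the 6 libraries, Kcnj16 is known as a partner of the glial channel Kcnj10. Kcnj16 was at 79.1, 42.6 and 59.7 CPM under vehicle with the neutral cue, at 47.3 under vehicle with the anxiety cue, and at 34.9 and 40.7 under CBD with it. The 25 had 4.44 to 26.8 CPM (median 10.7), a ratio of 4.21 with no overlap. Kcnj10 itself differed far less, with a ratio of 1.30, with 196 to 305 CPM (median 226) against 135 to 224 (median 174). Kcnj5, a subunit of the G protein-gated GIRK channels, had 6.55 to 12.7 CPM against 1.60 to 4.63. Its relative Kcnj6 had 28.01 to 55.6 against 5.33 to 31.9, with overlap, and Kcnj3 (ratio 1.55) and Kcnj9 (1.01) differed less. The other members above without overlap were the leak channels Kcnk9 (ratio 2.32) and Kcnk10 (2.81), the BK auxiliary Kcnmb2 (2.90) and the KChIP gene Kcnip4 (1.74). Kcnip4 and Kcnip2 belong to the same KChIP family and lay on opposite sides.

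Some families shared a direction without separation. All 7 calcium- or sodium-activated genes had a ratio under 1, with a median of 0.795, and none was free of overlap: Kcnt1 had medians of 152 and 260 CPM, Kcnn3 70.5 and 99.0, Kcnma1 43.9 and 53.5, and Kcnn2 24.7 and 27.3. Of 13 inward rectifiers 6 had a ratio under 1, of 11 two-pore genes 4, and of 14 auxiliary genes 5.

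**Figure D1:**
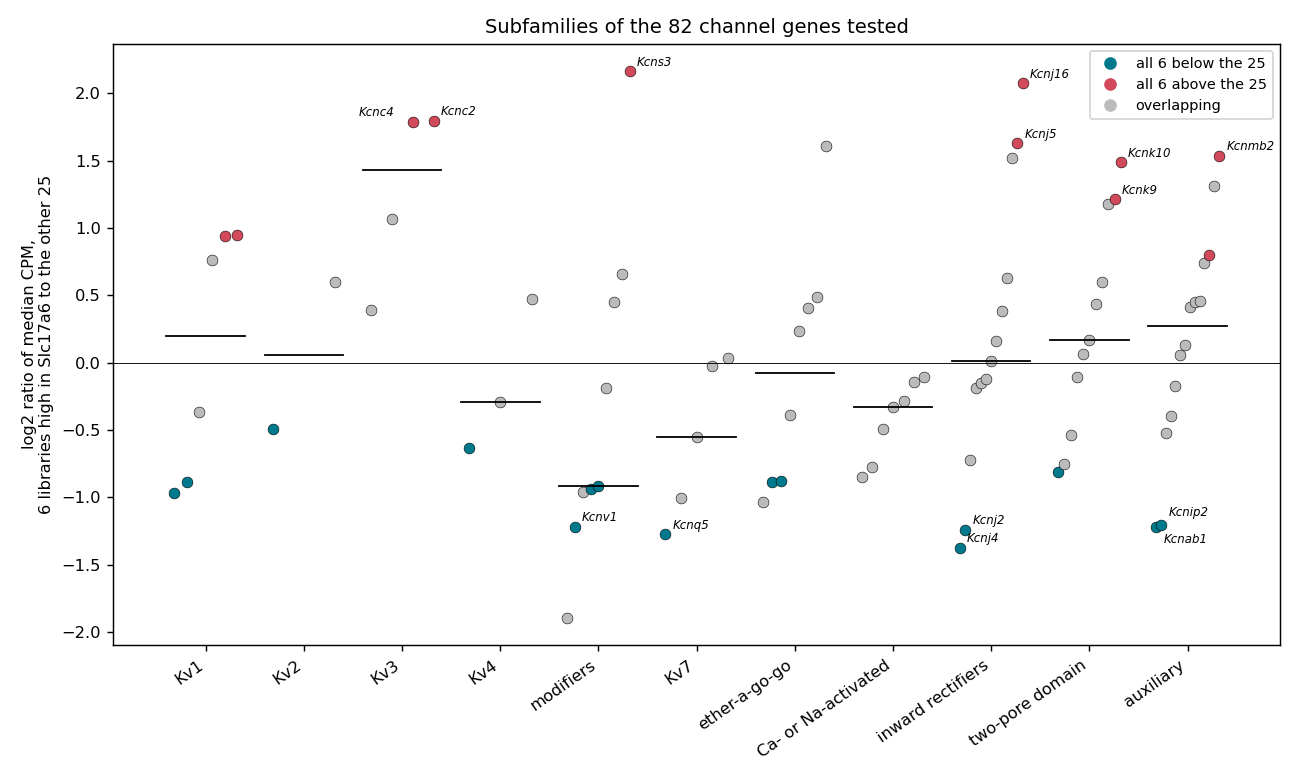
Each point is 1 of the 82 channel genes tested, placed by family on the horizontal axis and by the log2 ratio of median CPM between the 6 libraries high in Slc17a6 and the other 25 on the vertical axis, with a black line at each family's median. The 15 blue genes lie below without overlap and the 11 red genes above, and the Kv3 line stands highest while the modifier line stands lowest.

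**Figure D2:**
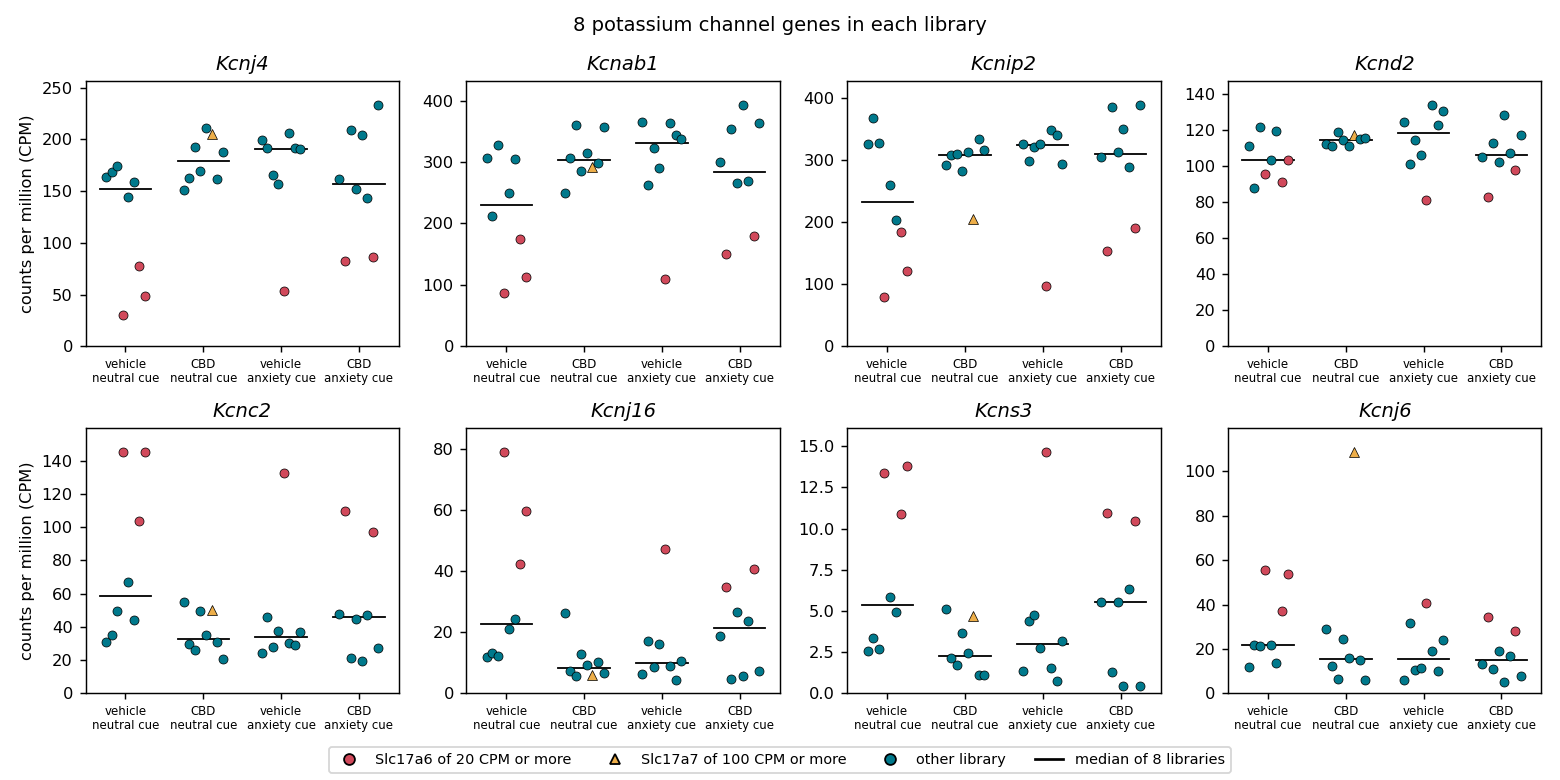
CPM of 8 channel genes in each of the 32 libraries by group, with a black line at the median of 8 libraries, red circles for the 6 libraries high in Slc17a6 and a yellow triangle for the library high in Slc17a7. The red points are the lowest for Kcnj4, Kcnab1 and Kcnip2 and the highest for Kcnc2, Kcnj16 and Kcns3, mix with the rest for Kcnd2, and the triangle stands alone at 109 CPM for Kcnj6.

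Whether channel genes followed striatal content among the 25 libraries that did not stand apart was asked with a score, the mean log2 CPM of the 20 medium spiny neuron markers, which hold no channel gene. The score ran from 8.34 to 9.20 (median 8.79) in the 25 and from 6.73 to 7.78 in the 6. With p-values adjusted over 17039 genes, Spearman's rho passed 0.05 for 20 members with a positive sign, against 5.67% of all genes, and for 8 with a negative sign, against 4.95%. Pearson's r gave the same counts, 20 and 8. The median rho was 0.158 over members and -0.00154 over all genes. All values are relative to a library's total, here after TMM scaling, so dilution by other RNA and a change within striatal cells cannot be told apart.

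Kcnab1 and Kcnj4 followed the score most closely. For Kcnab1 rho was 0.91 and r 0.86, and for Kcnj4 rho was 0.90 and r 0.90, each with a permutation p of 1e-05, the smallest that 100000 resamples can give (adjusted p = 0.000936 for rho, 0.000865 for r). Others with rho near the top were Kcna1 (0.84), Kcnf1 (0.84), Kcnk2 (0.83), Kcnv1 (0.83), Kcns2 (0.82), Kcnd2 (0.80) and Kcna4 (0.76), which share the adjusted permutation p of 0.000936. Of the 15 members low in the 6 libraries, Kcna5 (rho 0.52, adjusted permutation p = 0.0665) and Kcnh3 (rho 0.20) did not pass. Kcnn2, Kcnn3 and Kcnma1, calcium-activated channels that slow firing after spikes, passed with rho of 0.62, 0.66 and 0.56 (permutation test). Without the 2 libraries named below Kcnn3 still passed (adjusted permutation p = 0.0463) and Kcnn2 and Kcnma1 did not (0.104 and 0.166). Over the 6 libraries Kcnn2 and Kcnma1 had rho of -0.77 and -0.43.

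At the other end stood Kcns3 (rho -0.77), Kcnj5 (-0.75), Kcnj16 (-0.73), Kcnk10 (-0.69), Kcnc4 (-0.67), Kcnc2 (-0.65), Kcna6 (-0.59) and Kcnip4 (-0.56), with adjusted permutation p from 0.00177 to 0.0426. All 8 were also among the 11 above in the 6 libraries. Of the other 3, Kcna2 and Kcnk9 had rho of 0.20 and 0.17, and Kcnmb2 had -0.18, so these did not follow the score within the 25. In the reverse case, Kcna1 and Kcnd2 followed the score within the 25 and overlapped between the sets. Over the 6 libraries alone their rho was -0.09 each.

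Leaving out the 2 libraries farthest from the median score, vehicle neutral-cue library 5 and CBD anxiety-cue library 8, left 15 positive and 5 negative members past the threshold. Of the 28 members 19 stayed and 9 did not. Among the 9, besides Kcnn2 and Kcnma1, were Kcnc2, Kcna6 and Kcnip4, at adjusted permutation p of 0.0611, 0.0831 and 0.146, and Kcnj12, Kcnd1 and Kcnip2, at 0.0611, 0.0763 and 0.0763. For Kcnab1 and Kcnj4 r was then 0.84 and 0.88. The 28 were chosen by their rho over these same 25 libraries. Signs kept within the 25 are therefore fixed in part by that choice and are no separate check. After each group's mean was subtracted, all 28 kept their sign over the 25 libraries. Within the 10 of the 25 libraries high in Alb all 28 kept it as well, within the 8 high in neither Alb nor Plin1 27 did, all but Kcna6, and within the 7 high in Plin1 24 did. Kcnc2, Kcnip4 and Kcnma1 were among those that did not. Over the 6 libraries, where the smallest exact permutation p is 0.0028, none passed after adjustment and 23 of the 28 had the same sign. Kcnc2, Kcna6 and Kcng4 were then in exact reverse order of the score (rho -1, exact permutation p = 0.0028 before adjustment). Of these Kcng4 had not passed over the 25. Kcnab1 and Kcnj4 each had rho of 0.94 (exact permutation p = 0.0167 before adjustment), a value that other members such as Kcnip2 and Kcna4 shared.

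**Figure D3:**
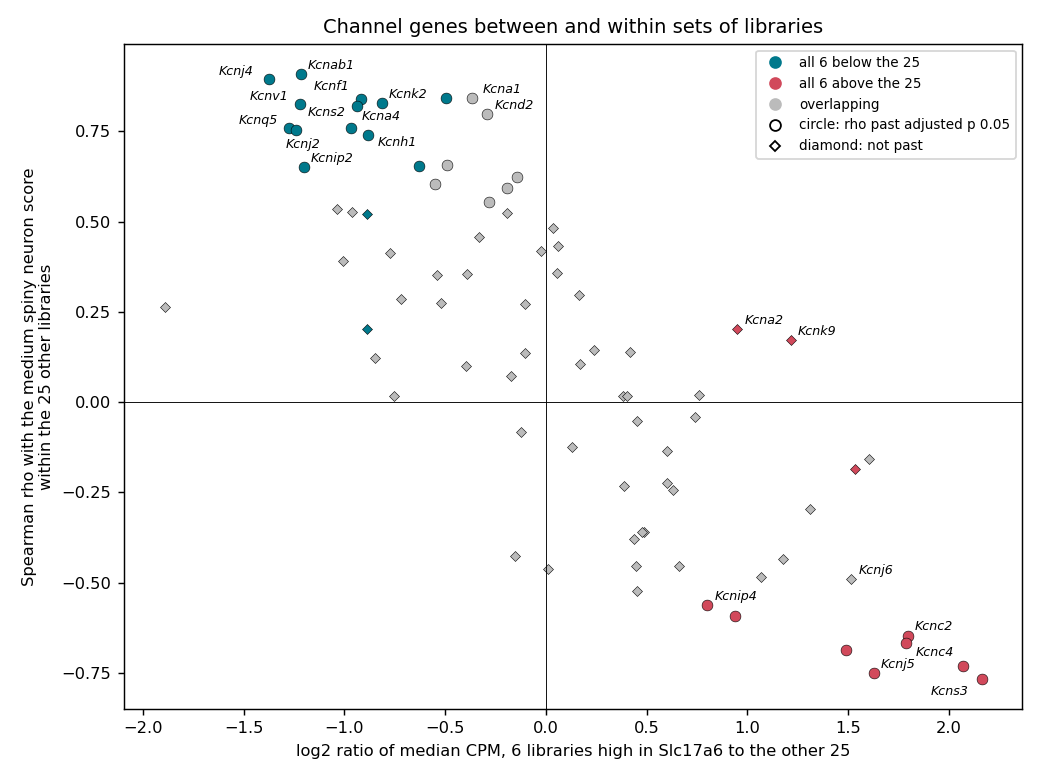
Each point is 1 of 82 channel genes, with the log2 ratio of median CPM of the 6 libraries to the other 25 on the horizontal axis and Spearman's rho with the medium spiny neuron score over the 25 libraries on the vertical axis. The 25 libraries of the vertical axis also enter the ratio. Kcnj4 and Kcnab1 lie at the upper left, Kcns3 and Kcnj5 at the lower right, and Kcna2 and Kcnk9 are high in the 6 without a negative rho.

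The library with the cortical marker, CBD neutral-cue library 6, differed in other channels. In 27 members it lay above all 25 libraries, against 9.7% of all genes, and in 5 below all 25, against 13.7%. It is 1 library, with no replicate check. Of the 4 GIRK genes, Kcnj6 was at 109 CPM, 8.02 times the median of the 25, Kcnj3 at 31.7 CPM (3.85 times) and Kcnj9 at 38.9 (1.79 times). Kcnj5 was at 1.61 CPM, near the lowest of the 25 at 1.60. Of the 11 two-pore leak genes 5 lay above all 25 and 6 within their range. Those above were Kcnk9 at 70.6 CPM (4.63 times), Kcnk4 at 39.0 (2.50 times), Kcnk12 at 11.7 (2.50 times), Kcnk10 at 8.32 (1.81 times) and Kcnk1 at 71.9 (1.40 times). Also above all 25 were the ether-a-go-go gene Kcnh7 at 55.2 (3.05 times) and the modifiers Kcns1 (3.50 times) and Kcng1 (2.48 times). Kcnip3 and Kcnmb4, auxiliary subunits, were at 2.20 and 2.04 times the median. Below all 25 were Kcna5, Kcne5, Kcng4, Kcnj8 and Kcnj14. Of these Kcnj8, a subunit of the ATP-sensitive channel of vessel wall cells, was lowest by ratio, at 0.746 CPM against 1.92 to 5.07.

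The 2 kinds of library, which both had Slc17a6 above the 25, differed from the 25 in partly different members. Kcnj4, Kcnab1 and Kcnq5, low in the 6, were within the range of the 25 in the cortical library, at 205, 292 and 230 CPM. Kcnj16 and Kcnc2, high in the 6, were within it at 6.14 and 50.1 CPM. Kcna2, Kcnc4, Kcnk9 and Kcnk10 were above the 25 in both, and Kcna5 was below the 25 in both. Kcnf1, Kcnh1 and Kcnv1 were low in the 6 and above the 25 in the cortical library.

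The study's comparisons were of the anxiety cue with the neutral cue, under vehicle and under CBD, of CBD with vehicle under each cue, and of the difference between these effects. No channel gene passed an adjusted p of 0.05 by edgeR's quasi-likelihood test in any of the 5, and neither did any other gene (0%). By DESeq2 3 members passed in 1 comparison, given with it below, and none in the others, where 0% of all genes passed in 3 and 0.0645% in the interaction. Without the 10 libraries high in Plin1, edgeR's adjusted threshold was passed by 30 members for the cue under vehicle (16.9% of all genes), 24 for CBD with the neutral cue (15.7%) and 13 for the interaction (8.4%). Of the 3 vehicle neutral-cue libraries that this leaves, 2 are among the 6 with neighbouring tissue, and with composition covariates no member passed. The neighbouring-tissue libraries were spread unevenly, with 3 and 1 of 8 in the vehicle groups (neutral and anxiety cue) and 0 and 2 of 8 in the CBD groups. Each comparison was therefore also made with the 7 libraries high in Slc17a6 or Slc17a7 left out. Libraries high in Plin1 were also uneven, with 5 and 3 of 8 in the vehicle groups (neutral and anxiety cue) and 0 and 2 in the CBD groups. Those high in Alb were 0 and 2 of 8 with vehicle and 4 and 4 with CBD.

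CBD against vehicle with the neutral cue gave the most small p-values. At an unadjusted p under 0.05 there were 37 of 82 members (45.1%), against 22.6% of all genes: 23 higher with CBD (10.5% of all genes) and 14 lower (12% of all genes). The median log2 fold change was 0.14 over members and 0.01 over all genes. Without the 7 libraries 8 members were under 0.05, against 10.1% of all genes, and the median was 0.03. Of these 2 groups, 3 vehicle libraries and no CBD library were among the 6. Libraries high in Plin1 were 5 with vehicle and 0 with CBD, and those high in Alb 0 and 4. With Alb and Plin1 covariates 14 members were under 0.05 (9.1% of all genes). There were 29 without the libraries high in Alb (14.5%) and 42 without those high in Plin1 (32.6%). Composition covariates gave 1 (4.61%). Leaving out 1 library gave 18 members without vehicle neutral-cue library 4 (14% of all genes) and 21 without library 8 (15.4%). Without CBD neutral-cue library 6, the cortical one, 30 members were under 0.05 (36.6%), against 21.6% of all genes. Of these 13 were higher and 17 lower. Over all members 41 lay above 0 and 41 below, and the median was -0.0046. The larger number of higher genes thus rested on that library, while the share of members stayed above that of all genes.

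Kcnn2, an SK channel of the spike afterhyperpolarization, had the smallest p. It was at 19.0 to 28.2 CPM (median 24.0) in vehicle and 23.7 to 36.0 (median 28.5) in CBD libraries, which overlapped. Its log2 fold change was 0.32 (SE 0.09, edgeR adjusted p = 0.0842) and 0.26 without the 7. Kcnj5 had 3.21 to 10.0 CPM (median 4.56) against 1.61 to 3.67 (median 2.41) with CBD, a log2 fold change of -1.21 (SE 0.36, edgeR adjusted p = 0.101), and -0.57 without the 7. Kcnj16 had 12.1 to 79.1 CPM (median 22.7) against 5.60 to 26.4 (median 8.21), and its log2 fold change of -1.62 (SE 0.49, edgeR adjusted p = 0.102) became -0.59. DESeq2 put these 3 under its adjusted threshold (adjusted p = 0.0337, 0.0378 and 0.0478), with 2.05% of all genes. Kcnn3, another SK channel gene, had a log2 fold change of 0.37, and 0.24 without the 7. With covariates for tissue composition the values were 0.17 for Kcnn2, -0.06 for Kcnj5, 0.03 for Kcnj16 and 0.08 for Kcnn3.

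Since 3 vehicle libraries here also served to sort the members, the direction of the sorted members in this comparison is fixed in part by that choice. The libraries left without the 7 set the range that members were sorted against. The values without the 7 are therefore no separate check. The 15 members low in the 6 libraries had a median of 0.50 (log2) with all libraries and 0.15 without the 7, with all 15 above 0 in both. The 11 high in them had -0.72 and -0.16, with 11 and 9 below 0. By family, the 4 Kv3 genes had a median of -0.71 that became -0.16, the 9 modifiers 0.50 that became 0.14, and the 5 Kv7 genes 0.38 that became 0.25.

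**Figure D4:**
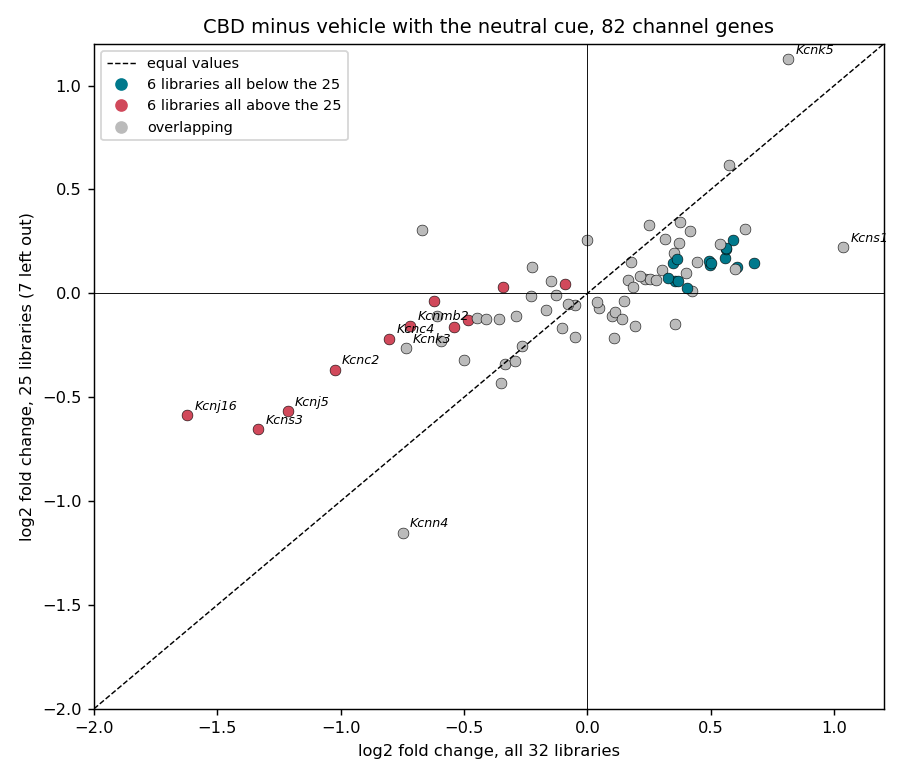
Log2 fold change of 82 channel genes for CBD minus vehicle with the neutral cue, from all 32 libraries on the horizontal axis and from the 25 left after removing the 7 libraries high in Slc17a6 or Slc17a7 on the vertical axis. Blue genes are low and red genes high in the 6 libraries, and both lie nearer to 0 on the vertical axis, with Kcnj16 at -1.62 and -0.59.

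With vehicle, the anxiety cue against the neutral cue gave 11 members under an unadjusted p of 0.05 (13.4%), against 12.7% of all genes. Of these 6 were higher with the anxiety cue (6.41% of all genes) and 5 lower (6.34%). There were 9 without the 7 libraries, against 11.4%. Composition covariates gave 2, against 6.17% of all genes. Without the libraries high in Alb there was 1 (5.12%), and without those high in Plin1 there were 37 (32.9%). The number turned on single libraries. It was 36 without vehicle anxiety-cue library 5 (25.2% of all genes), and 3 without vehicle neutral-cue library 4 (7.33%) or 8 (7.83%). It was 5 and 6 without anxiety-cue libraries 7 and 1 (8.91 and 8.96% of all genes) and 7 without neutral-cue library 7 (12.3%). Without neutral-cue libraries 6, 2, 1 and 3 it was 17, 18, 19 and 24 (12.1, 18.2, 15.5 and 17.8%). The share of all genes thus moved between libraries as well. Kcng2, Kcne5 and Kcnj16 were among the 5 with the smallest p. Kcng2, a modifier, had a log2 fold change of -0.42 (SE 0.14, edgeR adjusted p = 0.374) and -0.44 without the 7. Kcne5, a small auxiliary subunit, had -0.37 and -0.31, and Kcnj16 had -1.13 and -0.69. With composition covariates Kcng2 had -0.22 and Kcne5 -0.26. With those covariates and the libraries high in Plin1 left out they had -0.17 and -0.11. The edgeR adjusted p of Kcng2 ran from 0.0389, without the libraries high in Plin1, to 0.821, with composition covariates.

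With CBD, the anxiety cue against the neutral cue gave 8 members (9.76%), against 3.94% of all genes: 3 higher (1.65% of all genes) and 5 lower (2.29%). There were 5 without the 7, against 3.17%, and also 5 without CBD neutral-cue library 6 alone (3.44%) or CBD anxiety-cue library 1 (2.96%), and 13 without CBD anxiety-cue library 8 (4.79%). Composition covariates gave 9 members, 0 higher and 9 lower, against 3.52% of all genes. With the libraries high in Plin1 also left out there were 10, 0 higher and 10 lower (3.76%). The ether-a-go-go gene Kcnh5 had 38.3 to 45.7 CPM (median 44.5) with the neutral cue and 26.2 to 43.4 (median 32.4) with the anxiety cue, which overlapped. Its log2 fold change was -0.39 (SE 0.14, edgeR adjusted p = 0.995) and -0.34 without the 7. Kcnh7 and Kcnj3 had -0.60 and -0.59, which became -0.28 and -0.20 when CBD neutral-cue library 6, the cortical one, was left out alone. Kcne3 had -0.78 at under 1 CPM on average in both groups, and Kcnh2, the gene of the hERG channel, had 0.33 and 0.32 without the 7.

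CBD against vehicle with the anxiety cue gave 1 member under an unadjusted p of 0.05 (1.22%), against 1.58% of all genes: 0 higher (0.75% of all genes) and 1 lower (0.832%). It was Kcnh5, with 27.7 to 63.6 CPM (median 35.5) in vehicle and 26.2 to 43.4 (median 32.4) in CBD libraries and a log2 fold change of -0.31 (SE 0.14, edgeR adjusted p = 0.9999). Leaving out vehicle anxiety-cue library 8 brought it to -0.18. No member was left without vehicle anxiety-cue library 6 or 8 or CBD anxiety-cue library 2, 3 or 7. There were 2 without vehicle anxiety-cue library 2 or 3, CBD anxiety-cue library 8 or CBD neutral-cue library 6, 3 without CBD anxiety-cue library 5, and 4 without vehicle anxiety-cue library 5. Without the 7 libraries there were 6 members, against 2.99% of all genes. Composition covariates gave 8 members, 0 higher and 8 lower, against 2.98% of all genes. With the libraries high in Plin1 also left out there were 9, 1 higher and 8 lower (3.5% of all genes). In the main test, next by p were Kcnj15 (-0.60), Kcnh2 (0.28), Kcnk12 (0.32) and Kcne3 (-0.47).

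The interaction of cue and CBD had 22 members under an unadjusted p of 0.05 (26.8%), against 13.8% of all genes: 11 above 0 (7.02% of all genes) and 11 below (6.78%). There were 7 without the 7 libraries, against 7.48%. Composition covariates gave 6, against 4.82% of all genes. Without the libraries high in Alb there were 24 (11.4%), and without those high in Plin1 there were 38 (27.6%). Without vehicle anxiety-cue library 5 there were 38 (23% of all genes), 16 above 0 and 22 below. Without vehicle neutral-cue library 4 there were 9 (9.28%), and 10 without vehicle neutral-cue library 8 or CBD anxiety-cue library 2 or 7. There were 12, 13, 14 and 14 without vehicle anxiety-cue libraries 6, 7 and 8 and vehicle neutral-cue library 7. The share of all genes moved between libraries as well, as the 23 and 9.28% show. The smallest p was that of Kcnj16, with a log2 difference of 2.05 (SE 0.68, edgeR adjusted p = 0.321) that became 1.06 without the 7 libraries. Kcnh6, Kcnh5 and Kcnip1 were also among the 5 smallest, with 0.73, -0.52 and 0.74, and 0.43, -0.40 and 0.47 without the 7. The 4 groups enter more than one of these comparisons, so their values are not independent.

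Partners of the channels that the symbol rule does not take were given as a list of 28 genes, of which 27 were tested. It holds channel-bound proteins, the hyperpolarization-activated HCN channels and the sodium-potassium pump that restores the gradient. In 7 all of the 6 libraries lay above the 25 and in 1 below, against the 5.81 and 3.25% of all genes given above. Those above were Hcn3 (ratio 2.48), Hcn4 (3.13), Amigo1 (1.70), an auxiliary protein of Kv2 channels, Vapb (1.41), the BK partner Lrrc55 (1.82) and the pump subunits Atp1b1 (1.47) and Atp1b2 (1.65). Dpp6, a Kv4 partner, was level, with medians of 465 and 463 CPM. None of the 27 passed an adjusted p in any comparison. At an unadjusted p under 0.05 there were 13 of 27 for CBD with the neutral cue, against 22.6% of all genes: 3 higher (10.5% of all genes) and 10 lower (12%). Without the 7 libraries there was 1, against 10.1%. There were 5 for the cue under vehicle (12.7% of all genes) and 6 for the interaction (13.8%), which became 4 and 1 without the 7. The cue under CBD (3.94% of all genes) and CBD with the anxiety cue (1.58%) had 0, with and without the 7.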

How the data were processed

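Reads per gene were deposited by the authors as a table of whole-number counts for 34322 symbols in 32 libraries, each matched to a sample by its title. The submitters' processing notes name STAR, featureCounts and DESeq2 and list 2 builds, Rnor_6.0 and mRatBN7.2, without saying what each was for. Versions and the strand setting of the counting are not given in the sources used here. Counts of overlapping genes are therefore uncertain. CPM are counts per 1000000 of a library's total, and since exon lengths were not at hand, levels are not compared between genes.

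The main test was the quasi-likelihood test of edgeR 4.0.16 (R 4.3.3). Low genes were removed by filterByExpr, which kept 17059, libraries were scaled by TMM, and all 32 entered 1 model with 4 group means. Benjamini-Hochberg adjustment covered all genes tested, with a threshold of 0.05. DESeq2 1.42.0 was an alternative. Correlations used log2 CPM with TMM scaling and a prior count of 2, and 2-sided permutation tests of 100000 resamples. They were adjusted over all genes but the score's own markers, in place of the members alone as first planned. Composition covariates were the mean log2 CPM of the subcortical, cortical, oligodendrocyte and choroid plexus or ependymal marker lists. On simulated counts, without differences in tissue and with larger changes than most reported here, most of the changes put in were recovered. How the tests do with the tissue differences of these libraries was not simulated.

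Members, families, marker lists and settings were chosen with earlier results of these data known. A few members and 1 partner gene are counted but not reported here by name. Otherwise named are the 5 members with the smallest p in a comparison, a preset group, and the 10 members at each end by rho and by ratio. Others whose libraries did not overlap were named after their values were seen. Library numbers follow deposition order and pair nothing. Over the 112 pairs of libraries within groups, a chi-square test gave 5.56 to 112 per degree of freedom, so no pair was treated as 1 library. RefSeq promoters of the build GRCr8 were matched by symbol. The depth of 11.65 to 24.0 M counts gives little precision for members under 1 CPM.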

Additional observations from a re-analysis of the deposited data

Results flagged for a closer look

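In a group of 8 libraries, the highest or lowest library was singled out where its gap to the next passed the 95% critical value of Dixon's test. This was tried for 48 members in 4 groups, 192 in all, and it found 31. Chance singles out about 5% of such groups, but that rate does not apply here, since members were named in part for their ratio, rho or p, values that libraries singled out here helped to set. Values are in CPM.

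Vehicle anxiety-cue library 5, the only library of its group high in Slc17a6, gave 17 of them. It was the lowest for Kcnj4 (53.8), Kcnab1 (109), Kcnip2 (97.1), Kcnh4 (18), Kcnq5 (76.4), Kcnf1 (53.4), Kcns2 (19.6). It was the highest for Kcna2 (304), Kcnc1 (231), Kcnc2 (132), Kcnj16 (47.3), Kcnj5 (12.7), Kcns3 (14.6), Kcnk10 (13.9), Kcnc4 (120), Kcna6 (284), Kcnmb2 (4.68). CBD neutral-cue library 6, the library high in Slc17a7, gave 10. It was the lowest for Kcnip2 (205) and the highest for Kcna1 (311), Kcnj3 (31.7), Kcnj6 (109), Kcnj9 (38.9), Kcnk1 (71.9), Kcnh7 (55.2), Kcnk12 (11.7), Kcnc4 (67.9), Kcns1 (2.07).

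The other 4 were in single libraries outside these 7. Kcnj16 was at 26.4 in CBD neutral-cue library 1, Kcnip1 at 10.0 in CBD neutral-cue library 3, Kcns1 at 1.84 in vehicle anxiety-cue library 2 and Kcna1 at 290.7 in vehicle neutral-cue library 3.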

How the results depend on the processing

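The counts of members past an adjusted p stayed at 0 in all 5 comparisons with DESeq2's size factors, other filters, covariates and the 7 libraries high in Slc17a6 or Slc17a7 left out. Without the 10 libraries high in Plin1, 30 members passed for the cue under vehicle (16.9% of all genes), 24 for CBD with the neutral cue (15.7%) and 13 for the interaction (8.4%). That setting leaves 3 vehicle neutral-cue libraries, of which 2 are high in Slc17a6. With composition covariates added to it, an alternative chosen after seeing the data, the counts were 0. DESeq2 gave 3 for CBD with the neutral cue. Leaving out single libraries gave 0 to 1 there, the 1 being Kcnj5 without vehicle anxiety-cue library 5, and 0 in the other comparisons. Kcnj16 changed sign: its log2 fold change for CBD with the neutral cue was 0.0286 with composition covariates and 0.34 with these and no Plin1-high libraries, and under the latter it was 0.0331 for the cue under vehicle and -0.10 for the interaction; the cause was not tested. The 28 members past the threshold for rho were 20 to 29 under other settings. The counts of 15 below and 11 above were 15 to 16 and 11 to 15 when single libraries of the 6 were left out, and 16 and 11 with TMM-scaled CPM. No paired analysis was possible because the labels give no replicate numbers. Depth limits members near 1 CPM, such as Kcns1, Kcne3 and Kcnj15.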

Other observations

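Kcnab3, an auxiliary gene of Kv1 channels, was highest in a library outside the 6: it was at 47.3 CPM in vehicle anxiety-cue library 2, where the 6 libraries had 22.1 to 39.1 and the median of the 25 was 12.0. The same library was the highest of its group for Kcns1, at 1.84 CPM. Kcnk5, a leak channel gene, was at 4.31 CPM in CBD neutral-cue library 3 against a median of 0.468 in the 25, and that library was the lowest of its group for Kcnip1. These genes were picked after their values were seen, and nothing further was tested on them.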
